A study of Mus musculus with 10 samples.

Results

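Levels of 55 genes that make ribosomes or build the nucleolus were compared between 5 control and 5 Cxxc1 knockout forelimb buds of the mouse. The genes were chosen by name for their roles, with earlier results of these data known. They make up 55 of the 47729 genes of the count table. They comprised 4 subunits of RNA polymerase I, 3 proteins of box C/D and 4 of box H/ACA small nucleolar ribonucleoproteins (snoRNPs), 23 small-subunit factors, 15 large-subunit factors, 5 multifunctional nucleolar proteins and the regulator Myc. All 55 were found under their symbols and passed the filter on low counts.

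RNA was extracted from buds of embryos at embryonic day 11.5 to 12, taken from 4 litters named A to D. Each group had 2 embryos of litter A and 1 embryo of every other litter. The knockouts carried Prx1Cre and 2 floxed alleles of Cxxc1. Control 1 (litter A) carried Prx1Cre and 1 floxed allele. Controls 2 (litter A) and 4 (litter C) had no Cre and 1 floxed allele, and control 3 (litter B) had no Cre and 2 floxed alleles. Control 5 (litter D) had 2 floxed alleles, and its label marks the Cre with a question mark. All 10 embryos thus carried at least 1 floxed allele. Prx1Cre is active in limb bud mesenchyme, so that ectoderm, blood and vessel cells of the bud keep Cxxc1, which encodes a CpG-binding protein of the SET1 histone methyltransferase complexes.

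Ribosomes are built in the nucleolus. RNA polymerase I transcribes the precursor of the 18S, 5.8S and 28S ribosomal RNAs, box C/D snoRNPs guide ribose methylation and box H/ACA snoRNPs guide pseudouridylation. A large assembly called the small-subunit processome folds and cleaves the 18S part, and a separate set of factors matures the large subunit. Growing embryonic tissue uses this pathway heavily, and MYC proteins are known to activate many of its genes.

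Library totals ran from 33274855 to 49881126 estimated counts, and somite stages from 49 to 51 in both groups. Cxxc1 was at 91.4, 95.4, 105.8, 101.6 and 89.5 CPM (counts per 1000000 of the scaled library) in controls 1 to 5 and at 75.0, 75.8, 76.2, 75.8 and 73.1 CPM in knockouts 1 to 5. Every knockout lay below every control (log2 fold change -0.36, SE 0.05, edgeR adjusted p = 0.000144). These counts are of the entire gene, not of its floxed part alone. Xist, which coats an inactive X chromosome, reached 2290 CPM or more in 2 libraries and at 5.48 CPM or less in the others. Of 8 limb mesenchyme markers, 4 were lower and 0 higher in knockouts, and their summed level was 1927 to 2106 CPM in controls and 1142 to 1321 CPM in knockouts. All 10 macrophage markers were higher, with sums of 51.6 to 64.0 and 196.3 to 233.9 CPM. Erythroid (5 of 6 higher, 87.7 to 121.4 and 142.9 to 238.7 CPM), ectoderm (5 of 8 higher, 284.1 to 466.3 and 508.5 to 605.5 CPM), endothelial (6 of 8 higher and 1 lower, 263.0 to 308.4 and 310.7 to 359.0 CPM) and muscle precursor markers (4 of 6 higher, 60.5 to 80.3 and 60.9 to 134.3 CPM) also had higher summed ranges, overlapping for muscle precursors. Schwann and neural crest markers had 1 of 6 higher and 1 lower, with sums of 52.7 to 59.3 and 52.9 to 61.5 CPM. Marker calls are at an edgeR adjusted p below 0.05, where 18.1% of all genes tested were higher and 17.1% lower. The Schwann and neural crest list, at 16.7% each way, lay near these shares. All of these markers were detected, and their part in the results on ribosome biogenesis was not tested. In bulk tissue, fewer cells of a type and less RNA per cell cannot be told apart.

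Most of the ribosome biogenesis genes were higher in the knockout, by a modest amount. By edgeR's quasi-likelihood test, with a threshold of 0.05 on the Benjamini-Hochberg adjusted p, 45 of the 55 rose (81.8%), 1 fell and 9 were not called. Over all 20562 genes tested, 18.1% were called higher and 17.1% lower, and among the 10309 genes with a mean of at least 10 CPM, which include all 55, 19.3% were called higher. The median log2 fold change was 0.29, from -0.18 (Ddx52) to 1.10 (Myc), against -0.001 over all genes tested. In 35 of the 55 genes every knockout library lay above every control library, as in 13.0% of all genes tested. In 47 the knockouts were above the controls in all 4 litters, as in 23.5% of all genes tested. Because the 55 were chosen with earlier results of these data known, these shares are descriptions and not tests. Within litters A, B, C and D the median log2 difference over the 55 genes was 0.28, 0.47, 0.21 and 0.30.

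**Figure D1:**
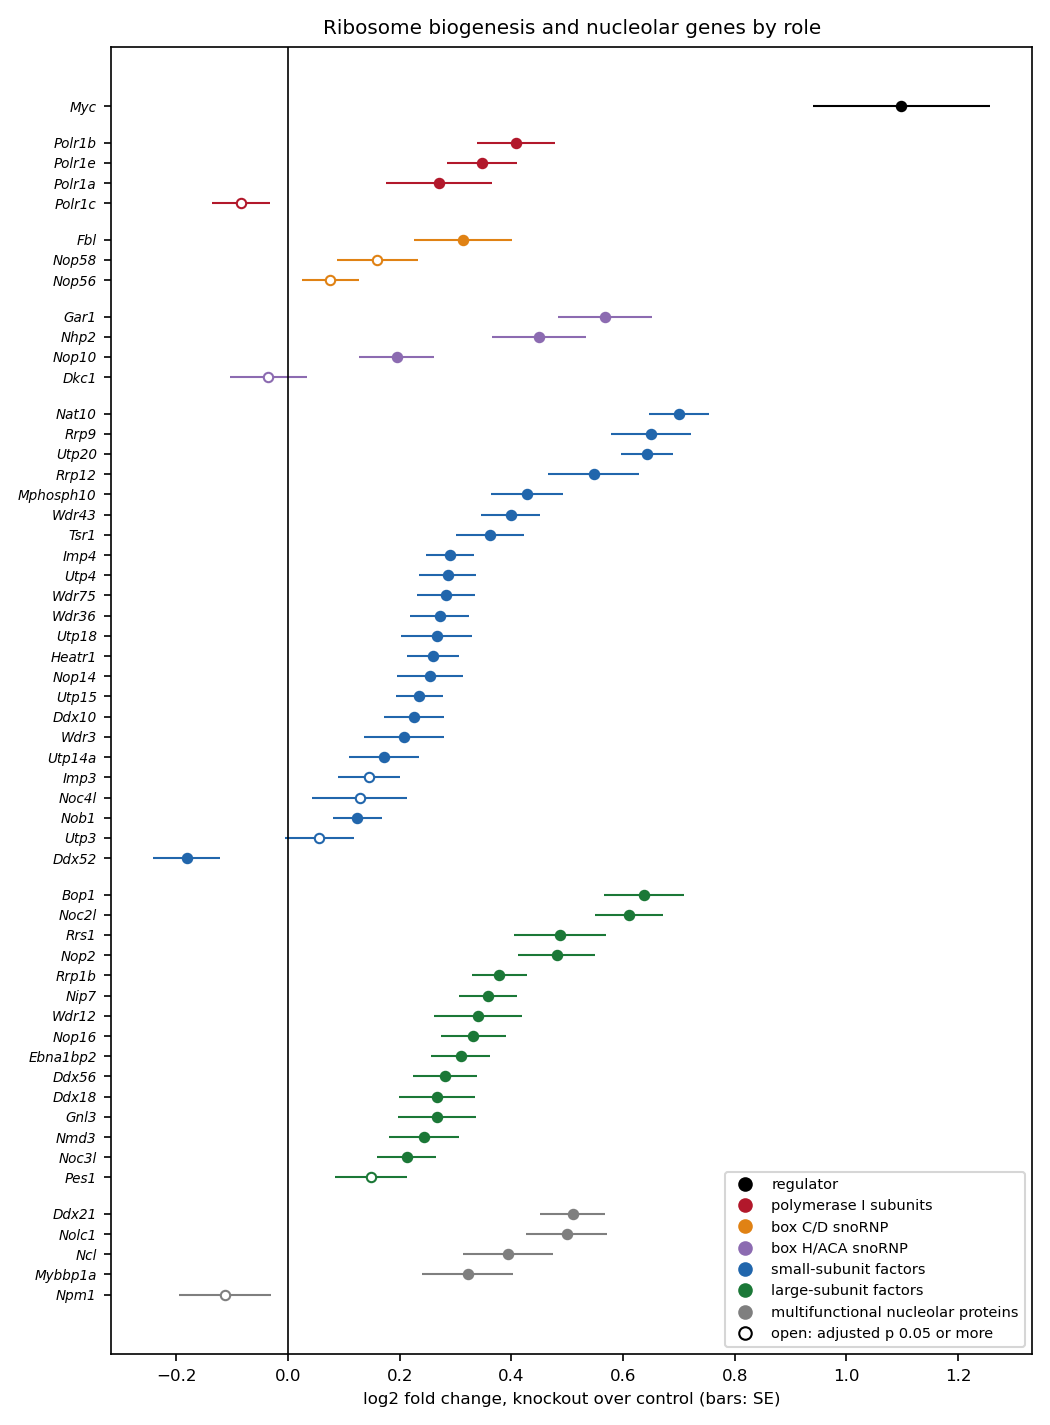
Each point is the log2 fold change of 1 of the 55 genes, knockout over control, with bars of 1 SE from edgeR's quasi-likelihood test, 5 libraries per group, grouped by role and ranked within a role. Filled points passed at an adjusted p below 0.05; 45 lie above 0, Ddx52 lies below, and the 9 open points did not pass.

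A score for each library, the median over the 55 genes of log2 CPM minus the control mean, separated the groups without overlap. The controls were at -0.01, -0.05, -0.10, 0.11 and 0.05, and the knockouts at 0.25, 0.23, 0.37, 0.30 and 0.33. Control 1, which carried Prx1Cre with 1 floxed allele, lay inside the range of the other controls. Levels themselves, per kilobase of exon, spanned from Npm1 at 593 and Ncl at 143 CPM per kb to Nmd3 at 5.32 and Wdr12 at 4.98 CPM per kb over all 10 libraries.

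Myc, the transcription factor that drives growth genes (chromosome 15, 61985391 to 61990374), changed the most among the 55 genes. Its controls 1 to 5 were at 13.2, 16, 16.3, 15.1 and 23.5 CPM and its knockouts 1 to 5 at 25.4, 35.5, 41.6, 37.2 and 40.2 CPM. All 5 knockouts were above the highest control, control 5, and knockout 1 was the lowest of its group. The means were 16.8 ± 3.90 and 36.0 ± 6.35 CPM (SD, n = 5 each), a 2.14-fold difference (log2 fold change 1.10, SE 0.16, edgeR adjusted p = 0.000225). Within litters the log2 difference was between 0.78 and 1.35. Mycn, the family member known for its role in limb mesenchyme, was at 79.8, 76.7, 92.7, 104.9 and 91.6 CPM in controls and 141.1, 134.8, 130.9, 123.3 and 126.4 CPM in knockouts. Its groups did not overlap either (log2 fold change 0.56, SE 0.08, edgeR adjusted p = 0.000169).

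Of 10 genes of the MYC family and its partners, fixed as a list beside the 55, 2 rose (Mycn and Mycl, 20% of the list) and 3 fell (Mxd3, Mxd4 and Mxi1, 30%). All genes tested were called higher in 18.1% and lower in 17.1% of cases, and those with a mean of at least 10 CPM in 19.3% and 24.9%, so that the list lay near the background. MXD3, MXD4 and MXI1 pair with MAX in place of MYC and repress. Of the other repressors of this kind on the list, Mxd1 (-0.33, edgeR adjusted p = 0.0789), Mga (-0.13, 0.15) and Mnt (0.08, 0.492) did not pass. Mxi1 was at 40.0, 39.3, 45.2, 43.3 and 37.9 CPM in controls and 34.7, 33.5, 31.6, 34.4 and 33.3 CPM in knockouts, and the groups did not overlap (-0.30, SE 0.06). Mxd4 was at 101.7 ± 11.9 and 82.2 ± 5.60 CPM (-0.31, SE 0.08), with control 4 inside the knockout range. Mycl and Mxd3, singled out after their values were seen, were at 0.22 (SE 0.06) and -0.37 (SE 0.11). The list's median log2 fold change was -0.02.

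**Figure D2:**
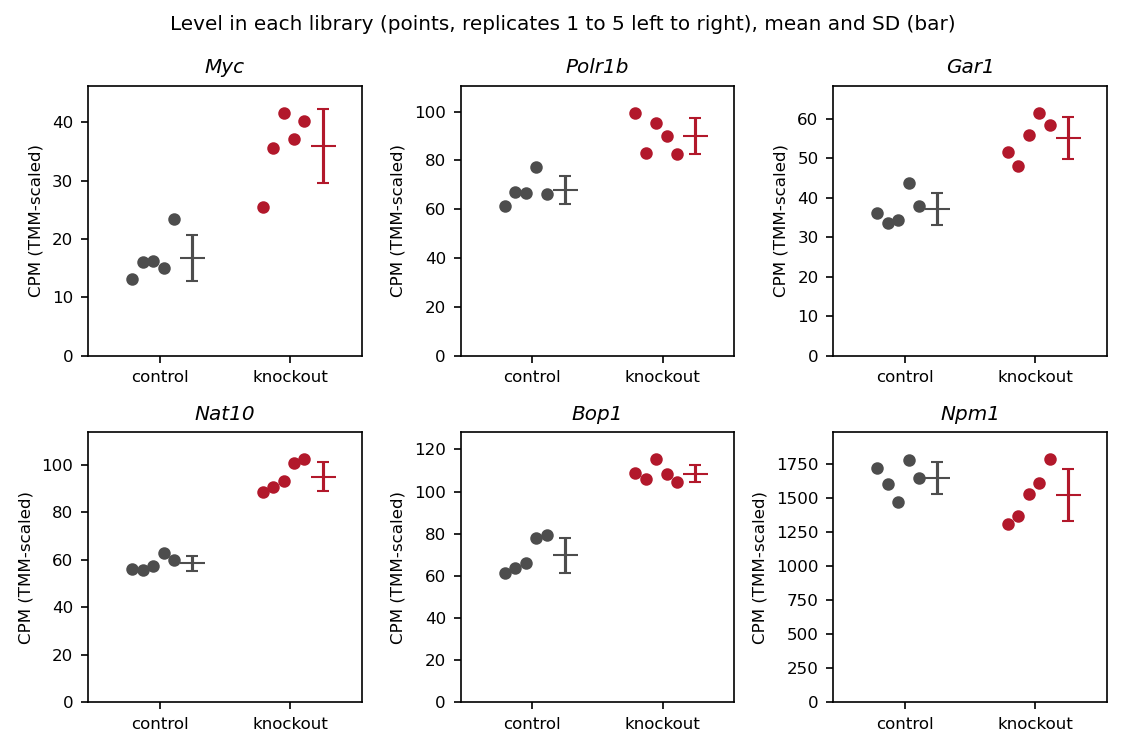
Points give the CPM of 6 genes in each library, scaled by TMM, controls in grey and knockouts in red, replicates 1 to 5 from left to right, with the mean and SD of each group beside them on axes that start at 0. Myc, Polr1b, Gar1, Nat10 and Bop1 do not overlap between groups, while Npm1 spans 1473 to 1780 CPM in controls and 1310 to 1782 CPM in knockouts.

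RNA polymerase I subunits rose in 3 of 4 cases (75%, against 18.1% of all genes tested), with a median log2 fold change of 0.31. Polr1b, the second-largest subunit and part of the catalytic centre (chromosome 2, 129100995 to 129126594), was at 61.4, 67.1, 66.8, 77.4 and 66.3 CPM in controls and 99.4, 83.2, 95.2, 89.9 and 82.5 CPM in knockouts. The lowest knockout lay above the highest control, control 4 (0.41, SE 0.07, edgeR adjusted p = 0.000709). Polr1e, a subunit that acts in initiation and elongation (chromosome 4, 45018583 to 45036565), was at 28.5, 26.3, 25.1, 30.8 and 28.5 CPM in controls and 35.2, 33.9, 38.2, 34.7 and 35.2 CPM in knockouts. Its groups did not overlap (0.35, SE 0.06, edgeR adjusted p = 0.00108).

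The largest subunit, Polr1a (chromosome 6, 71909053 to 71984935), was at 88.7, 117.5, 111.9, 119.1 and 132.3 CPM in controls and 132.0, 124.9, 158.7, 136.5 and 135.2 CPM in knockouts. Control 1 was the lowest library and control 5 lay above knockouts 1 and 2, so that the groups overlapped (0.27, SE 0.09, edgeR adjusted p = 0.0422). The call was lost without any 1 of controls 1, 2, 3 and 4 or knockouts 1, 3, 4 and 5 (adjusted p from 0.0547 to 0.102), and with the 2 high-Xist libraries left out the log2 fold change was 0.14. Polr1c, which RNA polymerases I and III share (chromosome 17, 46243920 to 46248054), did not pass. It was at 82.6, 80.2, 81.4, 78.3 and 81.8 CPM in controls and 68.7, 72.7, 77.6, 79.8 and 82.7 CPM in knockouts (-0.08, SE 0.05, edgeR adjusted p = 0.237). Its controls were tightly grouped. Knockouts 1 to 3 lay below them, knockout 4 among them and knockout 5 just above them.

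Of 11 other polymerase I subunits and initiation factors, 3 rose (27.3%), 1 fell (9.09%) and 7 did not pass (median 0.09). All genes tested were called higher in 18.1% and lower in 17.1% of cases, so that this list lay near the background. Polr1g, a subunit that partners Polr1e, was at 34.9 ± 3.09 CPM in the controls against 49.8 ± 2.08 CPM in the knockouts (0.51, SE 0.06). Rrn3, the factor that brings the polymerase to the promoter, was at 101.4 ± 5.87 and 131.5 ± 3.63 CPM (0.37, SE 0.04). Both had every knockout above every control. Polr1h, a small subunit with a role in RNA cleavage, had every knockout below every control, at 38.1 ± 2.74 and 31.7 ± 1.38 CPM (-0.27, SE 0.06). Ubtf, which binds ribosomal DNA along its length, did not pass, at 234.9 ± 17.2 and 237.3 ± 12.0 CPM (0.01, edgeR adjusted p = 0.872).

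Box H/ACA proteins rose in 3 of 4 cases (75%, against 18.1% of all genes tested, median 0.32). Gar1 (chromosome 3, 129824912 to 129831396), a core protein of the particle, was at 36.2, 33.5, 34.5, 43.8 and 37.9 CPM in controls and 51.5, 48.2, 56.0, 61.5 and 58.4 CPM in knockouts. The groups did not overlap, and control 4 and knockout 4, both of litter C, were the highest of their groups (0.57, SE 0.08, edgeR adjusted p = 0.000281). Nhp2, another core protein (chromosome 11, 51619735 to 51623714), was at 53.3, 49.5, 51.7, 64.6 and 58.4 CPM in controls and 68.9, 71.1, 87.5, 79.2 and 72.3 CPM in knockouts, again without overlap (0.45, SE 0.08, edgeR adjusted p = 0.00129). Nop10, the smallest core protein (chromosome 2, 112261926 to 112263269), was at 49.3, 49.1, 42.9, 56.3 and 52.1 CPM in controls and 55.6, 54.5, 58.6, 57.0 and 60.05 CPM in knockouts. Control 4 lay above knockouts 1 and 2 (0.19, SE 0.07, edgeR adjusted p = 0.0386). Nop10 lost its call without any 1 of controls 1, 2 and 3 or knockouts 1, 3, 4 and 5, without litter A (edgeR adjusted p = 0.175) and with a replicate block of number (0.0507).

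Dkc1, the pseudouridine synthase of the same particle (chromosome X, 75095854 to 75109777), did not pass and was singled out after its values were seen. It was at 146.5, 126.0, 121.3, 156.0 and 146.1 CPM in controls and 137.5, 128.7, 134.1, 132.3 and 146.4 CPM in knockouts. The groups lay across each other (-0.04, SE 0.07, edgeR adjusted p = 0.735). The sign depended on the scaling, with 0.02 when scaled by library size only. The 4 proteins of 1 complex thus had fitted log2 fold changes from -0.04 to 0.57, and the difference between them was not tested.

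In the box C/D particle, 1 of 3 genes rose (33.3%, against 18.1% of all genes tested, median 0.16). Fbl, the fibrillarin methyltransferase (chromosome 7, 28169710 to 28179269), was at 94.1, 91.9, 83.2, 108.8 and 91.2 CPM in controls and 113.1, 101.6, 105.5, 134.4 and 128.5 CPM in knockouts. Only control 4 reached into the knockout range (0.31, SE 0.09, edgeR adjusted p = 0.0147). The call was lost with controls without Cre only (adjusted p = 0.0741) and without litter A (0.0598). Nop56, a scaffold of the particle (chromosome 2, 130274430 to 130279313), was at 344.9, 303.2, 311.3, 345.3 and 333.1 CPM in controls and 326.9, 333.2, 363.8, 360.0 and 342.2 CPM in knockouts. Its groups overlapped and it did not pass (0.08, SE 0.05, edgeR adjusted p = 0.282). Nop58, its partner scaffold, did not pass at 212.9 ± 19.5 and 237.8 ± 20.2 CPM (0.16, SE 0.07, edgeR adjusted p = 0.111), although it did when scaled by library size only (0.21, adjusted p = 0.0243).

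Other snoRNP proteins and the factors that assemble the particles rose in 9 of 11 cases (81.8%, against 18.1% of all genes tested, median 0.28). Without litter A 3 of 11 rose, but genes called in all were then 4023, against 6279 to 7028 when 1 library was left out. Examples of the 9 are Ruvbl2, an ATPase of the R2TP assembly complex, at 129.5 ± 12.2 and 174.4 ± 7.95 CPM (0.43, SE 0.06), and Rpap3, its subunit that binds HSP90, at 43.1 ± 1.65 and 54.2 ± 2.0 CPM (0.33, SE 0.05). Nufip1, an assembly factor for box C/D particles, was at 31.03 ± 2.18 and 37.7 ± 1.17 CPM (0.28, SE 0.06), and did not pass without litter A (edgeR adjusted p = 0.0542). All 3 had every knockout above every control.

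Small-subunit factors rose in 19 of 23 cases (82.6%), with 1 lower (4.35%) and 3 not passing (median 0.27). Of all genes tested, 18.1% were called higher and 17.1% lower. In 16 of the 23, every knockout lay above every control, as in 13.0% of all genes tested. The largest change was that of Nat10, which acetylates cytidines of the 18S ribosomal RNA (chromosome 2, 103721256 to 103761270). It was at 56.0, 55.9, 57.6, 62.9 and 59.9 CPM in controls and 88.4, 90.8, 93.1, 100.6 and 102.2 CPM in knockouts. A wide gap lay between the groups (0.70, SE 0.05, edgeR adjusted p = 1.6e-06), and the log2 difference within litters was between 0.68 and 0.77.

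Utp20, a large scaffold protein of the processome (chromosome 10, 88746607 to 88826804), was at 97.8, 97.4, 101.8, 104.6 and 102.0 CPM in controls and 165.1, 148.0, 168.4, 147.2 and 157.9 CPM in knockouts. Its controls varied little, and all knockouts lay far above them (0.64, SE 0.05, edgeR adjusted p = 1.08e-06). Rrp9, the protein that marks the U3 snoRNP (chromosome 9, 106475963 to 106485424), was at 28.3, 30.2, 29.8, 35.2 and 34.2 CPM in controls and 49.5, 47.4, 52.2, 53.1 and 45.4 CPM in knockouts. The groups did not overlap, and knockout 5 was the lowest of its group (0.65, SE 0.07, edgeR adjusted p = 2.95e-05). Rrp12, which acts in export and maturation of the pre-40S particle (chromosome 19, 41862851 to 41896173), was at 38.9, 40.4, 44.5, 51.3 and 49.4 CPM in controls and 61.8, 61.6, 70.8, 70.2 and 63.8 CPM in knockouts, again without overlap (0.55, SE 0.08, edgeR adjusted p = 0.000265).

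Utp3, the small-subunit factor with the highest level per kilobase (55.5 CPM per kb, chromosome 5, 88554462 to 88556090), did not pass. It was at 91.1, 83.7, 79.0, 91.9 and 97.4 CPM in controls and 86.4, 86.9, 93.4, 95.5 and 98.5 CPM in knockouts, which overlapped almost fully (0.06, SE 0.06, edgeR adjusted p = 0.526).

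The processome is built from subcomplexes, a grouping added here beside the role classes. All 5 UTP-A genes among the 55 rose with every knockout above every control, as 13.0% of all genes tested had. UTP-A is the subcomplex that binds the nascent transcript first. These genes are Utp4, Utp15, Heatr1, Wdr43 and Wdr75 (log2 fold changes 0.24 to 0.40, median 0.28). Wdr43 changed the most of them, from 128.4 ± 7.49 to 169.2 ± 10.1 CPM. Heatr1 was at 106.2 ± 3.86 and 127.2 ± 7.53 CPM, and Utp15 at 65.0 ± 2.82 and 76.5 ± 2.07 CPM. The 3 UTP-B genes among the 55, Wdr3, Wdr36 and Utp18, rose as well (0.21 to 0.27), Wdr3 with overlap. Further subunits of UTP-A and UTP-B were not among the 55. In the MPP10 subcomplex, Mphosph10 rose from 62.8 ± 4.48 to 84.5 ± 6.49 CPM (0.43, SE 0.06) and Imp4 from 79.7 ± 4.26 to 97.5 ± 1.64 CPM (0.29, SE 0.04). Imp3 had every knockout above every control, at 32.4 ± 2.08 and 35.9 ± 1.37 CPM, but did not pass (0.15, SE 0.06, edgeR adjusted p = 0.062), except with library size scaling (0.0113), with DESeq2 (0.0359) and without control 4 (0.0438).

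The other small-subunit factors that rose are Nop14, a processome factor, at 64.4 ± 4.54 and 76.8 ± 4.80 CPM, the helicase Ddx10 at 47.3 ± 2.35 and 55.3 ± 3.09 CPM, and Tsr1, a factor of late pre-40S particles, at 85.6 ± 8.04 and 110.0 ± 4.05 CPM. Nob1, the endonuclease that makes the 3' end of 18S RNA, was at 59.7 ± 2.51 and 65.1 ± 2.30 CPM (0.12, SE 0.04, edgeR adjusted p = 0.0475). Utp14a, which activates a processome helicase, was at 66.1 ± 5.46 and 74.5 ± 4.52 CPM (0.17, SE 0.06, edgeR adjusted p = 0.0499). These calls and that of Wdr3 (0.21, adjusted p = 0.0399) were near the threshold. Nob1 and Wdr3 each lost the call without any 1 of controls 1, 2, 3 and 5 or knockouts 1, 2, 3 and 4, and Utp14a without any 1 of controls 2 to 5 or knockouts 3 to 5. With a replicate block of number none of the 3 passed (adjusted p = 0.0678, 0.0509 and 0.0938 for Nob1, Wdr3 and Utp14a). The same held with somite stage as a term (0.0619, 0.0531 and 0.0649). Without litter A, Nob1 (0.13, edgeR adjusted p = 0.226) and Wdr3 (0.12, 0.45) did not pass. With controls without Cre only, their adjusted p was 0.108 and 0.141.

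Ddx52, a helicase of the processome (chromosome 11, 83942062 to 83963088), was the 1 gene of the 55 called lower and was singled out after its values were seen. Its controls were at 96.5, 91.5, 74.4, 86.1 and 89.0 CPM and its knockouts at 77.5, 75.5, 77.5, 78.3 and 77.0 CPM. Control 3 lay below every knockout and the other 4 controls above them (-0.18, SE 0.06, edgeR adjusted p = 0.0339). The call was lost without any 1 of controls 1, 2 and 5 or of the 5 knockouts, with a replicate block of number (adjusted p = 0.055), and without litter A the log2 fold change was -0.10. Noc4l, which acts in the small-subunit pathway with Nop14, did not pass at 44.9 ± 4.19 and 49.1 ± 5.58 CPM (0.13, SE 0.09, edgeR adjusted p = 0.28).

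Large-subunit factors rose in 14 of 15 cases (93.3%, median 0.33), in 12 of them without overlap, and all 15 were higher in the knockouts of all 4 litters. Of all genes tested, 18.1% were called higher, 13.0% had every knockout above every control and 23.5% were higher in all 4 litters. Bop1, a scaffold of the PeBoW complex that acts on 28S and 5.8S processing (chromosome 15, 76452989 to 76477277), was at 61.6, 63.9, 65.9, 78.1 and 79.2 CPM in controls and 108.7, 105.8, 115.2, 108.2 and 104.4 CPM in knockouts. Controls 4 and 5 were the highest of their group and still below every knockout (0.64, SE 0.07, edgeR adjusted p = 3.63e-05). Its partner Wdr12 rose from 52.6 ± 4.69 to 66.6 ± 6.69 CPM (0.34, SE 0.08, edgeR adjusted p = 0.00515), with control 5 above knockout 2. The third partner, Pes1, did not pass at 125.9 ± 7.59 and 139.6 ± 12.3 CPM (0.15, SE 0.06, edgeR adjusted p = 0.0932). It did with a replicate block of number (adjusted p = 0.0283) or of litter (0.0278), when scaled by library size only (0.0162), without litter A (0.0467) and without knockout 2 (0.0192).

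Noc2l, a protein of pre-60S particles (chromosome 4, 156236010 to 156247616), was at 139.4, 135.8, 146.1, 166.0 and 164.8 CPM in controls and 225.6, 222.5, 240.1, 232.7 and 227.6 CPM in knockouts. The knockouts formed a narrow group far above the controls (0.61, SE 0.06, edgeR adjusted p = 1.19e-05). Exons of Samd11 on the opposite strand cover 20.9% of its exon bases. Its partner Noc3l rose less, from 48.0 ± 2.38 to 55.6 ± 2.96 CPM (0.21, SE 0.05). The difference between Noc2l and Noc3l was not tested.

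Nop2, which methylates a cytosine of 28S RNA (chromosome 6, 125131909 to 125144753), was at 70.1, 68.1, 72.9, 89.3 and 80.6 CPM in controls and 107.2, 103.1, 112.4, 105.0 and 104.4 CPM in knockouts. All knockouts lay above control 4, the highest control (0.48, SE 0.07, edgeR adjusted p = 0.000211). Rrs1, which brings the 5S particle into the large subunit (chromosome 1, 9545408 to 9547455), was at 50.9, 51.9, 52.0, 65.2 and 64.4 CPM in controls and 73.0, 75.5, 86.2, 83.8 and 80.1 CPM in knockouts, without overlap (0.49, SE 0.08, edgeR adjusted p = 0.000686). The other 8 large-subunit factors that rose had log2 fold changes from 0.24 to 0.38. They are the helicases Ddx18 (0.27) and Ddx56 (0.28), the nucleolar GTPase nucleostemin Gnl3 (0.27), the export adaptor Nmd3 (0.24), and Rrp1b (0.38), Nip7 (0.36), Nop16 (0.33) and Ebna1bp2 (0.31), which act on pre-60S particles. Rrp1b, the first of these by size, was at 82.4 ± 3.06 and 107.1 ± 6.53 CPM.

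The 5 multifunctional nucleolar proteins include the most abundant of the 55 transcripts. Of the 5, 4 rose (80%, against 18.1% of all genes tested, median 0.39). Ncl, nucleolin (chromosome 1, 86344719 to 86359400), was at 1244, 1222, 1133, 1448 and 1262 CPM in controls and 1448, 1549, 1612, 1820 and 1864 CPM in knockouts. Control 4 and knockout 1 lay at the same level, and otherwise the groups were apart (0.39, SE 0.08, edgeR adjusted p = 0.00246). Npm1, nucleophosmin (chromosome 11, 33152287 to 33163206), had the highest level per kilobase and did not pass. It was at 1718, 1600, 1473, 1780 and 1643 CPM in controls and 1310, 1365, 1526, 1612 and 1782 CPM in knockouts. Knockouts 1 and 2, both of litter A, were the lowest libraries, and the groups overlapped (-0.11, SE 0.08, edgeR adjusted p = 0.329), with within-litter differences from -0.31 to 0.12.

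Ddx21, a helicase that links ribosomal transcription and processing (chromosome 10, 62580251 to 62602281), was at 202.9, 192.8, 199.6, 228.3 and 216.8 CPM in controls and 280.1, 272.3, 314.3, 304.0 and 310.9 CPM in knockouts. Its groups did not overlap (0.51, SE 0.06, edgeR adjusted p = 3.85e-05). Nolc1, a chaperone of snoRNPs (chromosome 19, 46075863 to 46085530), was at 164.1, 164.3, 176.7, 206.2 and 191.3 CPM in controls and 241.7, 235.3, 279.4, 269.6 and 249.4 CPM in knockouts, also without overlap (0.50, SE 0.07, edgeR adjusted p = 0.000218). Mybbp1a, a nucleolar MYB-binding protein (chromosome 11, 72441355 to 72451768), was at 263.4, 264.2, 301.9, 353.9 and 304.8 CPM in controls and 345.2, 378.6, 401.4, 391.3 and 343.8 CPM in knockouts. Control 4 lay above knockouts 1 and 5 (0.32, SE 0.08, edgeR adjusted p = 0.00835), and the call was lost with controls without Cre only and without litter A.

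**Figure D3:**
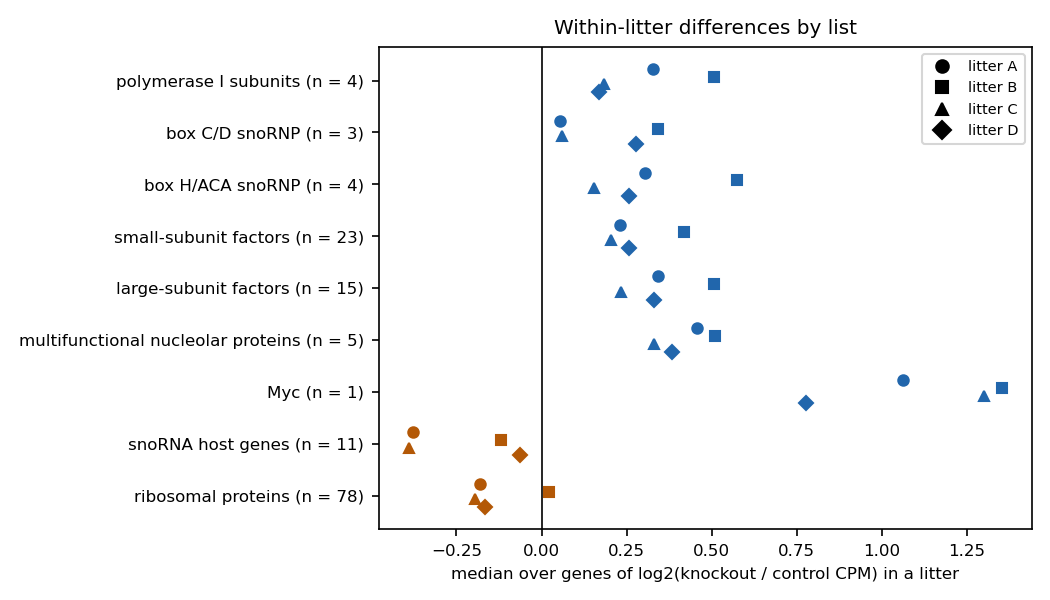
Each symbol is the median over the genes of a list of the log2 ratio of knockout to control CPM within 1 litter. The 6 role classes and Myc are in blue, and noncoding snoRNA host genes and ribosomal proteins in brown. All role classes lie above 0 in all 4 litters, and the ribosomal proteins lie between -0.20 and 0.02.

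The litters differed in size but not in sign for the role classes. For small-subunit factors the median within-litter difference was 0.23, 0.42, 0.21 and 0.26 in litters A to D, and for large-subunit factors 0.34, 0.51, 0.23 and 0.33. Litter B had the largest median in each of the 6 classes. For polymerase I subunits it was 0.33, 0.51, 0.18 and 0.17, and for the box C/D genes 0.06, 0.34, 0.06 and 0.28. Litters B, C and D each rest on 1 embryo per group, and differences between litters or between role classes were not tested.

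Promoter sequences were examined for 48 of the 55 genes, which matched 52 promoters of 300 bases (250 before the start and 50 after it) in RefSeq on GRCm38.p6. The palindrome CACGTG, an E-box that MYC with MAX and other basic helix-loop-helix factors can bind, was present in 10 of the 52 (19.2%). That compares with 9.20% of the 16389 promoters of genes tested, 10.9% of those of all genes called higher and 7.15% of all 32851 promoters. Of the genes with the motif, 6 are small-subunit factors, 3 large-subunit factors and 1 a multifunctional nucleolar protein. The 10 promoters of polymerase I, box C/D and box H/ACA genes with an entry had no match. The 52 promoters held a median of 21 CG pairs per 300 bases (5 to 56). The median was 18 in genes tested, 17 in all genes called higher and 7 in all promoters. Unmethylated CG pairs are what CXXC1 binds. The shares were not tested, and a match is a description of letters, not of binding. Shown are the stretches, all before the start, of the genes called higher whose motif lies before the start and whose stretch lies outside the annotated gene, with CACGTG in capitals and up to 60 bases on each side. They are from Nop2 (chr6:125131763-125131882, plus strand, motif at position -60 from the start), Imp4 (chr1:34439648-34439773, plus strand, position -121) and Utp18 (chr11:93885767-93885846, minus strand, position -20).
Nop2: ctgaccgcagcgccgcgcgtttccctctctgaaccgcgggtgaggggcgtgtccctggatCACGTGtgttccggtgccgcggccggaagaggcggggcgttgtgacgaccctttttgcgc
Imp4: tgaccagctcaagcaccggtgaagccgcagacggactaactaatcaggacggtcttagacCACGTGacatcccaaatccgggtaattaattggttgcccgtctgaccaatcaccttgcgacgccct
Utp18: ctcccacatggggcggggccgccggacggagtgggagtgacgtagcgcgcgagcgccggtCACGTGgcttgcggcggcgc

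Genes of the pathway outside the 55 were counted from lists chosen by role, also with earlier results known. Of 34 other small-subunit factors tested, 17 rose (50%) and 0 fell (median 0.15). Of 48 other large-subunit factors, 27 rose (56.25%) and 0 fell (median 0.21). Both shares were below those of the small-subunit (82.6%) and large-subunit factors (93.3%) among the 55. Wdr46, a processome protein, was at 50.3 ± 4.79 and 77.9 ± 5.85 CPM (0.63, SE 0.07), Rcl1 at 42.0 ± 3.31 and 55.7 ± 2.47 CPM (0.41, SE 0.06) and Nop9 at 54.6 ± 3.16 and 68.4 ± 2.33 CPM (0.32, SE 0.05). For the large subunit, Mak16 was at 73.9 ± 4.97 and 111.1 ± 4.30 CPM (0.59, SE 0.05), Ppan at 49.7 ± 4.53 and 74.2 ± 4.17 CPM (0.58, SE 0.07) and Nol9, a polynucleotide kinase, at 73.6 ± 5.13 and 104.2 ± 3.34 CPM (0.50, SE 0.05). All 6 had no overlap between the groups. Of all genes tested, 18.1% were called higher and 17.1% lower. The RNA exosome, which trims ribosomal RNA precursors, had 5 of 13 genes higher (38.5%) and 1 lower (7.69%, median 0.13). Exosc5 (0.39, SE 0.08), Exosc1 (0.26, SE 0.07) and its nuclease Dis3 (0.22, SE 0.05) rose, and C1d, named after its value was seen, was lower (-0.27). Without litter A, Exosc5 (0.27, edgeR adjusted p = 0.0852) and Exosc1 (0.24, 0.151) no longer passed.

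Ribosomal protein genes were more often lower than higher. Of 78 tested, 37 fell (47.4%, against 17.1% of all genes tested and 24.9% of those with a mean of at least 10 CPM), 4 rose and 37 did not pass, with a median log2 fold change of -0.14, in litters A to D of -0.18, 0.02, -0.20 and -0.17. With library size scaling the median was -0.08. Without litter A, where fewer genes were called in all, 21 fell. Rps4x was at 1369, 1313, 1261, 1401 and 1406 CPM in controls and 823.7, 861.5, 893.6, 860.0 and 916.9 CPM in knockouts, a clear separation (-0.63, SE 0.05). Rpl22l1, a paralog of Rpl22, was at 93.6 ± 10.3 and 47.6 ± 6.15 CPM (-0.97, SE 0.10). Rps27l, a paralog of Rps27 known as a p53 target, was the largest rise, from 84.0 ± 10.2 to 189.3 ± 9.97 CPM (1.17, SE 0.08). The other 3 that rose, named after their values were seen, were Rpl19 (0.20), Rpl38 (0.18) and Rps2 (0.16). Ribosomal protein genes have many processed pseudogenes, so that their estimated counts are less certain.

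Noncoding host genes that carry snoRNAs in their introns, Gas5 and Snhg genes, were lower in 6 of 11 cases (54.5%) and higher in 1 (9.09%). All genes tested were called lower in 17.1% and higher in 18.1% of cases. The median of the list was -0.27. Without litter A, where fewer genes were called in all, 3 were lower. Protein-coding hosts were not in this list, and Ncl, Gnl3 and Nop56 of the 55 overlap snoRNA genes on the same strand. Nop58 overlaps the same-strand gene Gm26293 over 0.8% of its exon bases. Gas5 was at 286.2, 274.8, 249.6, 277.5 and 239.0 CPM in controls and 158.8, 171.0, 161.6, 174.6 and 184.2 CPM in knockouts, and the groups did not overlap (-0.64, SE 0.06). Snhg18 (-0.79, SE 0.10) and Snhg5 (-0.45, SE 0.08) fell as well, and Snhg15, named after its value was seen, rose (0.26, SE 0.09). Snhg5 did not pass without litter A (-0.36, edgeR adjusted p = 0.0538). Gas5 and many ribosomal protein transcripts carry a 5' terminal oligopyrimidine tract.

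The 5S particle of Rpl5, Rpl11 and 5S RNA binds MDM2, the ubiquitin ligase of p53. Mdm2 was at 69.8, 72.9, 66.8, 71.7 and 72.2 CPM in controls and 137.7, 135.8, 110.7, 121.2 and 119.4 CPM in knockouts, with a wide gap between the groups (0.82, SE 0.06, edgeR adjusted p = 1.19e-06). Rpl5 (0.20, edgeR adjusted p = 0.0528) and Rpl11 (-0.12, adjusted p = 0.0784) did not pass. These are RNA levels, and a link between the 5S particle and the level of Mdm2 RNA was not tested.

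**Figure D4:**
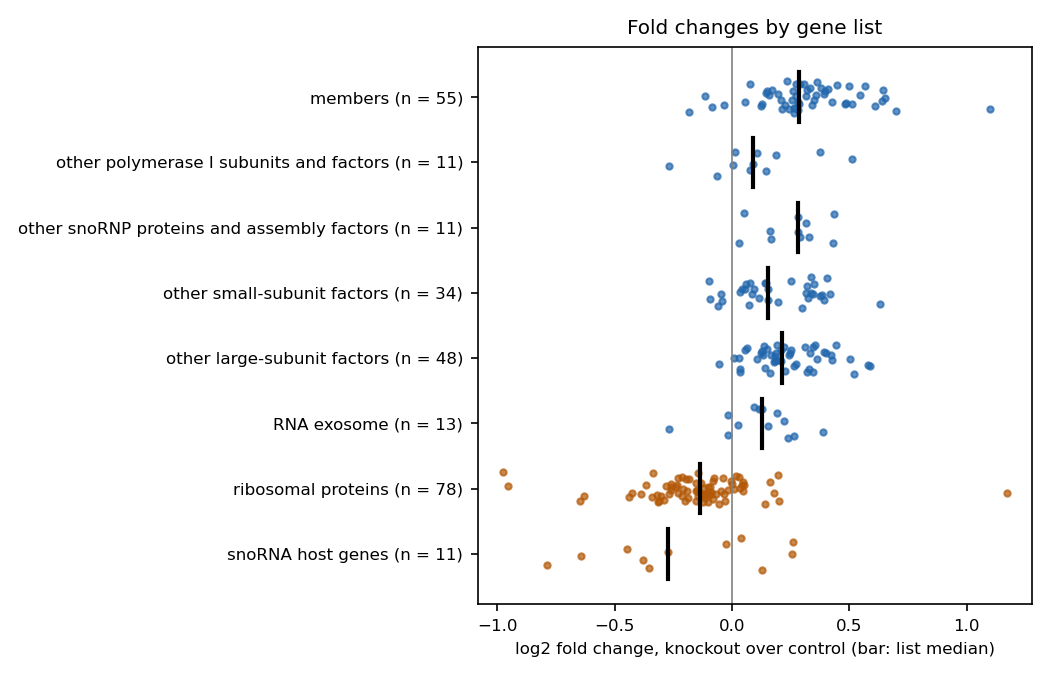
Each point is the log2 fold change of 1 tested gene, knockout over control, by list, with the vertical bar at the median of the list and points spread vertically for legibility. The 55 genes have a median of 0.29 and the 5 related lists between 0.09 and 0.28. The ribosomal proteins are at -0.14 and the noncoding snoRNA host genes at -0.27.

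Some of the 55 genes share sequence with other genes, which makes their estimated counts less certain. The share of their 31-base words also found in another gene was 65.5% for Ddx18, most of it in a processed pseudogene, 34.8% for Pes1, 33.2% for Tsr1, 29.4% for Npm1, 22.4% for Nop56, 21.8% for Fbl and 19.9% for Noc2l. For Tsr1 the partner is Srr on the opposite strand, whose exons cover 32.3% of its exon bases, and for Wdr3 opposite-strand exons cover 16.2%. Further shares were 17.0% for Imp3, 15.8% for Rrs1, 14.6% for Utp14a and Wdr3, 12.4% for Wdr12 and 11.2% for Nip7. Noc2l and Rrs1 are thus among the genes with both a large change and shared sequence. The shares were 0.4% for Nat10 and Gar1, 0.3% for Utp20, 0.7% for Bop1 and 2.3% for Rrp9.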

How the data were processed

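Total RNA of 10 forelimb buds was sequenced after library preparation with a TrueSeq kit, per the labels' protocols. The authors deposited estimated counts per Ensembl gene. DESeq2 1.16.1, Salmon 0.8.2, R 3.4.1 and the build mm10 were named without a role, per the submitters' processing notes. For the summing of transcripts to genes and the use of strand, no method is given in the sources used here. Whole numbers (within 1e-06) made up 0.0592% of the estimated counts above 0, and all values were rounded. A second deposited table holds a signal, which equals rounded counts divided by 1 factor per library for 100% of its values (within 0.01), and was used only as an alternative, as log2(value + 1). Of 47729 gene IDs, 47310 had a symbol in GENCODE M21 (GRCm38, the assembly of mm10). 0 columns belonged to no sample.

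The filter was filterByExpr with a minimum count of 10 and a minimum total of 15, and scaling was by TMM. Knockout was tested against control without covariates in edgeR 4.0.16 (glmQLFit and glmQLFTest, under R 4.3.3). Benjamini-Hochberg adjustment was over 20562 genes. The SE is the size of the log2 fold change over the square root of F. CPM refer to the TMM-scaled library. Alternatives used limma 3.58.1, DESeq2 1.42.0, other scalings, a replicate block and left-out libraries. Each embryo gave 1 library, and p-values measure the spread between these embryos. The biological coefficient of variation was 16.4%. Counts give precision for counting error only, and within a group the chi-square of any 2 libraries, per degree of freedom, was 17.5 or more, so none was a duplicate.

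The labels give the replicate numbers a shared litter (numbers 1 and 2 litter A, 3 B, 4 C, 5 D). Deviations from the group means of same-numbered libraries correlated at -0.04, 0.13, -0.03, 0.06 and 0.22.

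The 55 genes and all lists were chosen with earlier results of these data known. Values in all libraries were given for Myc, the polymerase I subunits, up to 4 genes per role class with the largest called change and the gene with the highest level per kilobase of each class. Of each other list up to 3 called genes with the smallest adjusted p were named, and Mycn whatever its test. Other genes were given in less detail, some singled out after their values were seen.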

Additional observations from a re-analysis of the deposited data

How the results depend on the processing

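Across 21 alternatives the number of the 55 genes called higher ran from 38 (without litter A) to 48 (scaled by library size only), with 40 to 44 when 1 library was left out. Their median log2 fold change ran from 0.27 to 0.34. Of the 45 genes called higher, all kept a positive fold change under all 21 alternatives and 36 kept the call. With a replicate block of number 42 were higher and 0 lower, and with a replicate block of litter 45 and 1. Beside the genes for which the report gives it, the block changed no other call among the 55 except that Utp14a was also lost with the block of litter. The 1 gene called lower, Ddx52, was not called (0 genes) under scaling by library size only, with a replicate block of number, with controls without Cre only, without litter A and without the 2 libraries with high Xist (an alternative chosen after seeing the data), and 0 to 1 when 1 library was left out. Genes called in all were 4023 without litter A, where 6 libraries remain, and 6279 to 7028 when 1 library was left out. Dkc1 turned to 0.016 with library size only and 0.0126 with controls without Cre only, and lay between -0.0827 and 0.00757 when 1 library was left out. Npm1 turned to 0.0048 without litter A. Neither passed, and the cause was not tested. Without litter A, Polr1a, Wdr3, Nob1, Utp18 and Ddx18 also lost their calls, as did Exosc1, Exosc5, Nufip1 and Snhg5 of the other lists. With somite stage as a term, Polr1a, Nop10, Utp14a, Wdr3 and Nob1 lost theirs. Over 80 named genes and 21 alternatives, 1579 of 1680 values kept direction and side of the threshold. Depth did not limit the 55 genes, the lowest of which were at 13.2 CPM or more in all libraries.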
